A study of Mus musculus with 4 samples.

Results

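The genes described here are 10 mouse genes of vitamin D, klotho and phosphate handling, which were chosen by name among the 55401 genes counted in each library. They are the vitamin D enzymes Cyp27b1 and Cyp24a1, the receptor genes Vdr, Kl and Fgfr1, the phosphate transporters Slc34a1, Slc34a3 and Slc20a2, and the endocytic receptors Lrp2 and Cubn. The choice was made with earlier results of these data known. Each name was matched to 1 Ensembl gene. RNA was sequenced from 4 libraries, 1 each from the kidney of the CLP group, the kidney of the CLP + MLT group, the heart of the CLP group and the heart of the CLP + MLT group. CLP (cecal ligation puncture) is an operation that lets gut bacteria leak into the abdomen and causes sepsis, and MLT is melatonin. All libraries came from C57BL/6 mice that had undergone CLP, so none shows the genes without sepsis. The methods of the study describe male mice aged 8 weeks, 14 days of drinking water with melatonin (25 μg/ml) in the CLP + MLT group, and kidneys collected 24 h after CLP. They do not describe the hearts, for which dose, age and time are not given here. Pooling of mice is neither stated nor denied by the labels and methods. Each group had 1 library, so the variation among mice is unknown and the conditions were not tested against it.

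Vitamin D is made active in the proximal tubule of the kidney. CYP27B1 adds the last hydroxyl group that yields the active hormone, and CYP24A1 starts the breakdown of the hormone and of its precursor. The active hormone binds the vitamin D receptor, and Cyp24a1 is a classical target gene of this receptor. Klotho, the product of Kl, turns FGF receptors into receptors for the bone hormone FGF23, which lowers CYP27B1, raises CYP24A1 and makes the tubule take up less phosphate. Phosphate is taken back from the filtrate by the sodium-phosphate cotransporters of the SLC34 family in the apical membrane, and megalin (Lrp2) and cubilin (Cubn) take up the protein that carries vitamin D.

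Promoter sequences from RefSeq (GRCm38.p6) were matched for 7 of the 10 genes and not for Cyp24a1, Fgfr1 and Slc20a2. The 250 bases before the start site are shown for Cyp27b1, which was lower in the CLP + MLT kidney library, for Slc34a1, which was higher, and for Kl, whose product controls both enzymes. Capitals mark half-sites of the vitamin D receptor, searched on both strands as AGGTCA (in 14% of all windows), AGTTCA (in 11.8%), GGTTCA (in 8.85%), GGGTCA (in 11.6%), GGGTGA (in 13.8%) and AGGTGA (in 14.5%). The Cyp27b1 window lies at chr10:127047996-127048245 on the plus strand, the Slc34a1 window at chr13:55399398-55399647 on the plus strand and the Kl window at chr5:150952357-150952606 on the plus strand. The start of Slc34a1 in RefSeq lies inside the gene as GENCODE draws it. For Slc34a1 and for Cubn, the bases checked after the RefSeq start were not found in a GENCODE transcript of the gene. The places of their half-sites relative to the start are therefore uncertain.
Cyp27b1: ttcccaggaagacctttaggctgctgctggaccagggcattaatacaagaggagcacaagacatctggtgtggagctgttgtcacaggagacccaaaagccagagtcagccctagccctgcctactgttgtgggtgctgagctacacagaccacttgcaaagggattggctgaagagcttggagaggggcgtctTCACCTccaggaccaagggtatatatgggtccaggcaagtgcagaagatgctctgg
Slc34a1: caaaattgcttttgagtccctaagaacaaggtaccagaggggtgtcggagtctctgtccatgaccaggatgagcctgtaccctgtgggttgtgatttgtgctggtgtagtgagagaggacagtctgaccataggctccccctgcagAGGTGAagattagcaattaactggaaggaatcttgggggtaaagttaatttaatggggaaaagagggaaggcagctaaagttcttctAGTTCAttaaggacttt
Kl: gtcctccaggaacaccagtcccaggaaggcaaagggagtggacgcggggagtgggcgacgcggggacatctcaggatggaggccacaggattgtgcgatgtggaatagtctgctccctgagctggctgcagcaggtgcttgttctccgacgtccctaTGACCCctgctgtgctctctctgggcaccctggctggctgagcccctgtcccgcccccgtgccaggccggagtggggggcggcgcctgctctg
The Cyp27b1 window held 1 half-site, AGGTGA on the minus strand, from base 56 to base 51 before the start. Slc34a1 had AGGTGA from base 104 to 99 and AGTTCA from base 17 to 12, and Kl had GGGTCA on the minus strand from base 93 to 88. In Slc34a3, AGGTCA occurred on each strand, from base 33 to 28 and from base 6 to 1, within an exon that GENCODE draws for the gene. Vdr, Lrp2 and Cubn each had 1 half-site. Such matches are common, since 53.6% of the 32851 promoter windows of this length held at least 1. A direct repeat of such half-sites with a spacer of 3 bases, the form the receptor prefers, was found in none of the 7 windows and in 0.164% of all windows.

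The libraries held 22927905 (CLP kidney), 16474248 (CLP + MLT kidney), 16623050 (CLP heart) and 15883057 (CLP + MLT heart) reads counted on genes. Genes of the mitochondrial genome took 14.8% and 24.2% of the counts in the kidney libraries and 31.6% and 36.0% in the heart libraries. The tissue labels were compared with marker genes. The 10 cardiomyocyte markers summed to 12.2 and 16.6 normalised CPM (counts scaled for library depth) in the kidney libraries and to 38062 and 26048 in the heart libraries. The 10 markers of segment S3 of the proximal tubule summed to 19010 and 28040 in the kidney libraries and to 412.9 and 852.0 in the heart libraries, so that transcripts typical of kidney were present in both heart libraries.

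In the kidney, Slc34a3, Cyp27b1 and Cyp24a1 were lower in the CLP + MLT library than in the CLP library, and Slc34a1 was higher. These 4 genes lay past a fold of 1.5, the fold that the study used as its threshold. A fold of 1.5 upward was reached by 1 of the 10 genes, against 11.0% of the 16932 genes tested in kidney, and a fold of 1.5 downward by 3 of the 10, against 11.6%. Since the 10 genes were chosen with earlier results known, these shares are a description and not a test. The other 6 genes, Vdr, Kl, Fgfr1, Slc20a2, Lrp2 and Cubn, lay within 1.5-fold. The log2 ratios of the 10 genes ranged from −2.68 to 0.63, with a median of −0.10, beside 0.0029 for all genes tested. All ratios are CLP + MLT over CLP, after scaling with the TMM method, and each is followed in brackets by its 95% exact interval, which covers counting error only. In whole kidney, fewer cells of a type and less RNA per cell cannot be told apart.

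**Figure D1:**
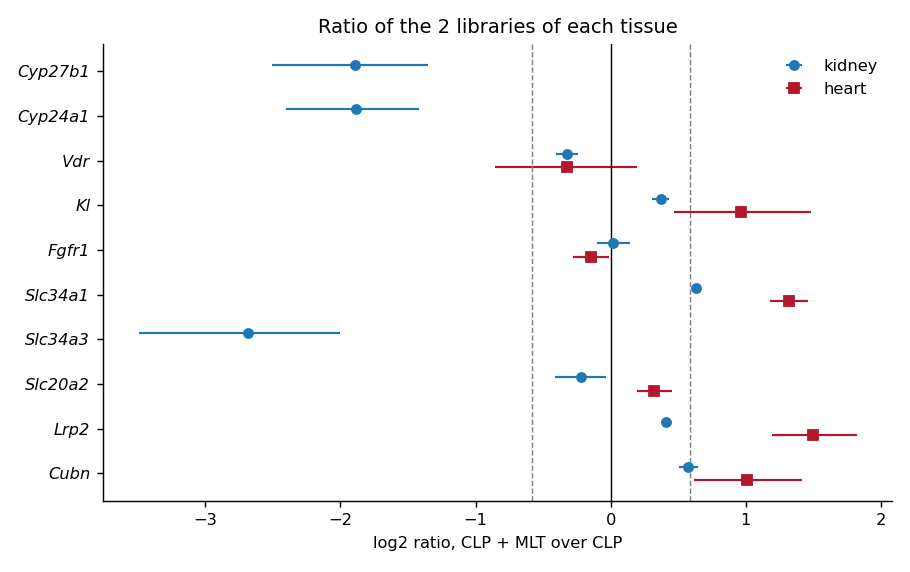
Log2 ratio of CLP + MLT over CLP for each gene in kidney (circles) and heart (squares), with 95% exact counting intervals as bars and dashed lines at a fold of 1.5 in each direction. Cyp27b1, Cyp24a1 and Slc34a3 lie far to the left in kidney and have no point in heart, where they were too low to be compared, while Kl, Slc34a1, Lrp2 and Cubn lie to the right of the upper line in heart.

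Both vitamin D enzymes were lower in the CLP + MLT kidney library. Cyp27b1 (ENSMUSG00000006724.12, mm10 chromosome 10 from 127048250 to 127053006), the activating enzyme, had 185 counts in the CLP kidney and 31 in the CLP + MLT kidney. Its log2 ratio was −1.89 (−2.50 to −1.35), 3.71-fold lower, and 1.33% of all genes tested had a lower ratio. Cyp24a1 (ENSMUSG00000038567.5, chromosome 2 from 170482708 to 170497145), the inactivating enzyme, had 249 counts in the CLP kidney and 42 in the CLP + MLT kidney. Its log2 ratio was −1.89 (−2.40 to −1.42), 3.70-fold lower. The activating and the inactivating enzyme were thus lower by nearly the same fold. Per length, the ratio of Cyp27b1 to Cyp24a1 within a library was 1.03 in the CLP kidney and 1.02 in the CLP + MLT kidney. The log2 change of this ratio was −0.0095 (−0.79 to 0.75), an interval wide enough to hold a difference of more than 1.5-fold in either direction at these counts. A ratio within a library does not depend on how the libraries were scaled.

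Vdr (ENSMUSG00000022479.15, chromosome 15 from 97854425 to 97910630), which encodes the vitamin D receptor, had 3820 counts in the CLP kidney and 1918 in the CLP + MLT kidney. Its log2 ratio was −0.32 (−0.40 to −0.24), below 0 beyond counting error and within 1.5-fold. The value depended on the scaling, with −0.52 by library size only and −0.11 when scaled to proximal tubule markers, both outside this interval. The receptor and its target gene Cyp24a1 were therefore not lower to the same degree. The ratio of Vdr to Cyp24a1 within a library was 9.67 in the CLP kidney and 28.8 in the CLP + MLT kidney, a log2 change of 1.57 (1.09 to 2.09).

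Kl (ENSMUSG00000058488.7, chromosome 5 from 150952607 to 150993817), the FGF23 coreceptor, had 4572 counts in the CLP kidney and 3706 in the smaller CLP + MLT kidney library. After scaling, its log2 ratio was 0.37 (0.31 to 0.43), above 0 and within 1.5-fold. By library size only it was 0.17, and scaled to proximal tubule markers it was 0.58. Fgfr1 (ENSMUSG00000031565.18, chromosome 8 from 25513654 to 25575718), an FGF receptor that klotho pairs with, had 1411 and 897 counts and a log2 ratio of 0.018 (−0.10 to 0.14). The interval of Fgfr1 held 0, and its sign depended on the scaling, with a log2 ratio of −0.18 by library size only. The ratio of Kl to Fgfr1 within a library was 3.43 in the CLP kidney and 4.37 in the CLP + MLT kidney, a log2 change of 0.35 (0.21 to 0.49).

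The phosphate transporters went in different directions. Slc34a1 (ENSMUSG00000021490.11, chromosome 13 from 55398187 to 55415592), which encodes the main cotransporter of the proximal tubule (NaPi-IIa), had 31882 counts in the CLP kidney and 31051 in the CLP + MLT kidney. Its log2 ratio was 0.63 (0.61 to 0.66), 1.55-fold higher and just past the threshold. When the libraries were scaled by size only, it was 0.44, within 1.5-fold, while the median of all genes moved to −0.19. Slc34a1 shares 545 exon bases with Pfn3 on the other strand. Pfn3 had 1430 and 1880 counts in the kidney libraries, and no source used here says how reads of the shared bases were assigned.

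Slc34a3 (ENSMUSG00000006469.13, chromosome 2 from 25228898 to 25234364), the related cotransporter NaPi-IIc, had 187 counts in the CLP kidney and 18 in the CLP + MLT kidney. Its log2 ratio was −2.68 (−3.49 to −2.01), 6.4-fold lower, and 0.461% of all genes tested had a lower ratio. Its ratio was the lowest of the 10, with an interval that overlapped those of Cyp27b1 and Cyp24a1. The ratio of Slc34a3 to Slc34a1 within a library was 0.0116 in the CLP kidney and 0.00115 in the CLP + MLT kidney, 10.1-fold lower, with a log2 change of −3.34 (−4.13 to −2.64).

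Slc20a2 (ENSMUSG00000037656.9, chromosome 8 from 22476788 to 22569612), which encodes the widely expressed transporter PiT-2, had 647 and 348 counts in the kidney libraries. Its log2 ratio was −0.22 (−0.41 to −0.032), within 1.5-fold, and was −0.0086 when scaled to proximal tubule markers. The ratio of Slc34a1 to Slc20a2 within a library was 65.5 in the CLP kidney and 119 in the CLP + MLT kidney, a log2 change of 0.86 (0.66 to 1.05). Of the summed level per length of 5 phosphate transporter genes (these 3, Slc34a2 and Slc20a1), Slc34a1 made up 90.3% in the CLP kidney and 95.9% in the CLP + MLT kidney. The share of Slc34a3 was 1.05% and 0.110%, and that of Slc20a1, which encodes PiT-1, was 6.90% and 2.92%.

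**Figure D2:**
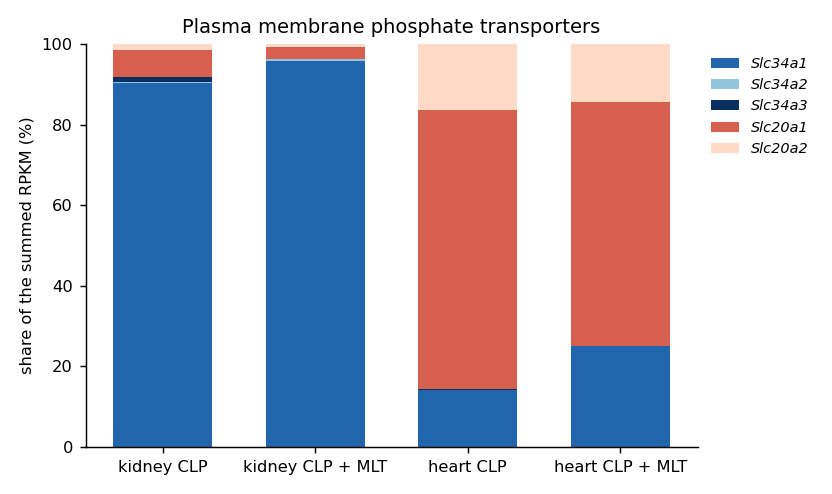
Share of each of 5 phosphate transporter genes in their summed RPKM (percent, stacked bars) in each library, with no error bars since each bar is 1 library. Slc34a1 fills 90.3% and 95.9% of the kidney bars, while Slc20a1 fills 69.3% and 60.5% of the heart bars.

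The receptors that take up filtered proteins were both higher in the CLP + MLT kidney, and both lay within 1.5-fold. Lrp2 (ENSMUSG00000027070.14, chromosome 2 from 69424340 to 69586065), which encodes megalin, had 11434 and 9552 counts and a log2 ratio of 0.41 (0.37 to 0.45). Cubn (ENSMUSG00000026726.10, chromosome 2 from 13276338 to 13491813), which encodes cubilin, had 3731 and 3489 counts and a log2 ratio of 0.58 (0.51 to 0.64). With upper quartile scaling, Cubn also passed the fold of 1.5. By library size only, the log2 ratios were 0.22 for Lrp2 and 0.38 for Cubn. Scaled to proximal tubule markers, they were 0.63 and 0.79. The ratio of Cubn to Lrp2 within a library was 0.365 in the CLP kidney and 0.408 in the CLP + MLT kidney, a log2 change of 0.16 (0.085 to 0.24).

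The 10 genes spanned a wide range of levels in kidney. Levels of different genes were compared as RPKM, that is, normalised CPM divided by the kilobases of merged exons. In the CLP kidney, Slc34a1 stood first with an RPKM of 248, followed by Lrp2 (24.9), Vdr (24.6), Kl (17.9), Cubn (9.10), Fgfr1 (5.20), Slc20a2 (3.79), Slc34a3 (2.89), Cyp27b1 (2.62) and Cyp24a1 (2.55). Counting intervals overlapped for Lrp2 and Vdr and for the 3 lowest genes, so these neighbours could not be ordered. In the CLP + MLT kidney, Slc34a1 had an RPKM of 385 and Slc34a3 had 0.442. Kl (23.0) stood above Vdr (19.7) there, and the intervals of neighbours among Cyp27b1 (0.698), Cyp24a1 (0.683) and Slc34a3 again overlapped.

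**Figure D3:**
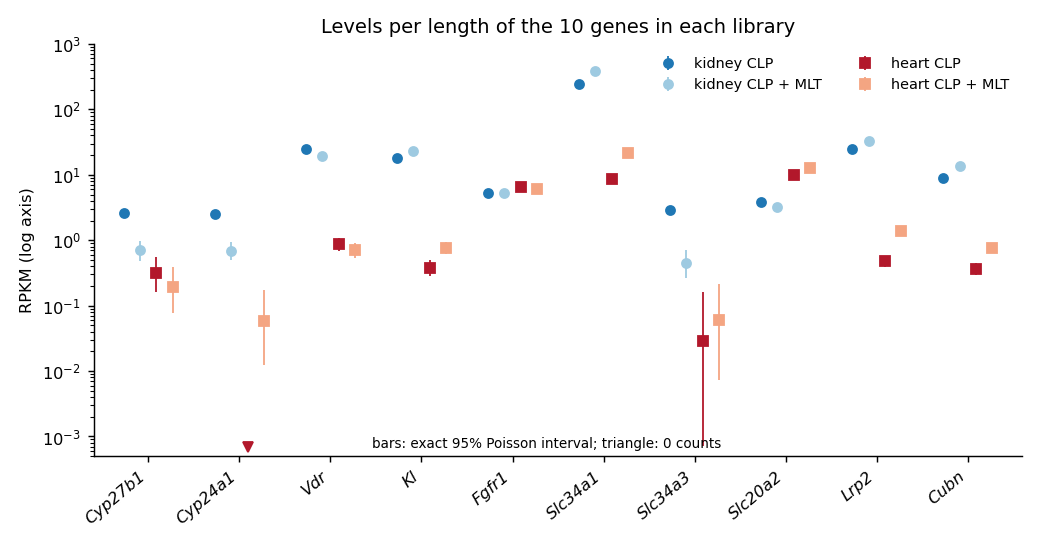
RPKM of the 10 genes in each library on a log axis, kidney as circles and heart as squares, with exact 95% Poisson intervals as bars and a triangle for 0 counts. Slc34a1 lies highest in kidney, with 248 and 385, while Slc20a2 lies higher in heart than in kidney.

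Other genes of these pathways were counted from 8 lists written from general knowledge, with the 10 genes left out. These lists too were chosen with earlier results of these data known. Of their 85 genes, 77 were tested in kidney, 2 were higher past the fold and 12 were lower. Scaled to the S1 and S2 markers of the proximal tubule, 11 were higher and 6 lower, so the balance of directions depended on the scaling. With both directions pooled, 18.2% of the tested genes passed, beside 11.0% higher and 11.6% lower of all genes, no more often than the background. The directions differed under the main scaling. Of the 77 genes, 12 were lower, beside 11.6% of all genes, and 2 were higher, beside 11.0%. Their median log2 ratio was −0.028. The list of FGF receptor response genes, which early growth signals switch on, had the lowest median, −0.39, with 4 of 12 genes lower and 0 higher. Among these 4, Dusp4 (45 and 17 counts), Fos (46 and 15) and Fosl1 (32 and 2) averaged under 50 counts. The interval of Dusp4 (−1.63 to 0.10) held 0. Egr1, an early response transcription factor, had 187 and 58 counts and a log2 ratio of −1.01 (−1.47 to −0.59).

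Among genes of vitamin D synthesis and breakdown, 6 of 8 were tested, with 1 higher and 1 lower. Gc, which encodes the protein that carries vitamin D in blood, had 1360 counts in the CLP kidney and 411 in the CLP + MLT kidney, a log2 ratio of −1.05 (−1.22 to −0.89). Fdxr, a reductase that feeds electrons to mitochondrial P450 enzymes such as CYP27B1 and CYP24A1, had 422 and 500 counts and was higher, with 0.92 (0.73 to 1.11). None of the 10 tested partners of the vitamin D receptor passed the fold, and they ranged from −0.37 to 0.51.

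Of the 11 tested genes listed as targets of the receptor or as part of calcium transport, 2 were lower and 0 higher. Spp1, which encodes osteopontin, had 251014 counts in the CLP kidney and 32496 in the CLP + MLT kidney, a log2 ratio of −2.28 (−2.29 to −2.26). Spp1 is also known as a gene of injured tubules. Cldn2, a claudin of the proximal tubule, had a log2 ratio of −0.79 (−0.87 to −0.71). The median of this list was 0.027.

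In the klotho and FGF23 list, 9 of 13 genes were tested and 1 was lower, Galnt3, whose enzyme protects FGF23 from cleavage, with −0.67 (−0.89 to −0.46). Fgf23 itself had 0 counts in every library, below the floor of 3 counts taken as the limit of detection. Of the PTH receptor list, 1 of 9 was lower, the kinase gene Sgk1 with −0.67 (−0.78 to −0.57). Of the phosphate and mineral list, 2 of 9 were lower, Alpl, which encodes tissue-nonspecific alkaline phosphatase, with −0.89 (−0.95 to −0.83) and Slc20a1 with −0.70 (−0.80 to −0.60). Of the apical endocytosis list, Dab2, the adaptor that binds the megalin tail, was lower with −0.67 (−0.73 to −0.61), and Ocrl, a lipid phosphatase of endosomes, was higher with 0.65 (0.47 to 0.83). The other 9 tested genes of that list were within 1.5-fold, and its median was −0.021.

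**Figure D4:**
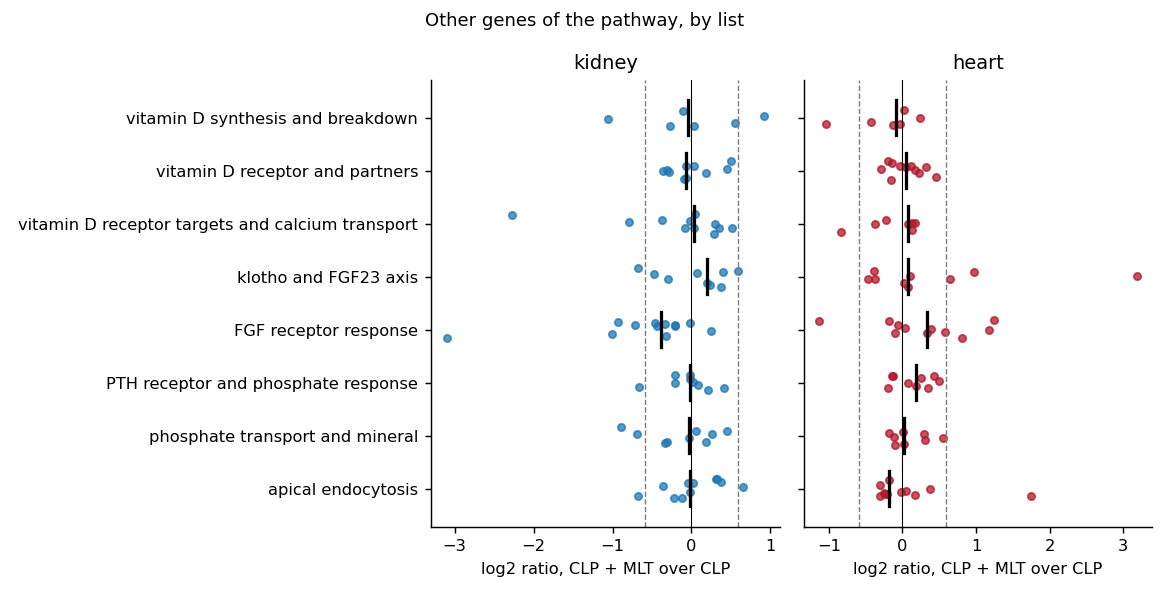
Log2 ratio of CLP + MLT over CLP for the other genes of each list, in kidney (left) and heart (right). Each point is a tested gene, black bars are list medians and dashed lines mark a fold of 1.5. In kidney the FGF receptor response list has the lowest median, −0.39, and the other medians lie between −0.065 and 0.20.

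Markers of cell types moved between the kidney libraries together with some of the 10 genes, and their part in these differences was not tested. Of 15 markers of segments S1 and S2 of the proximal tubule, 8 were lower past the fold and 2 higher, with a median of −0.63. Their summed level was 9841 normalised CPM in the CLP kidney and 8468 in the CLP + MLT kidney. The S1 genes Slc5a2, which encodes a glucose transporter, and Slc5a12 had log2 ratios of −2.23 and −3.31, while Slc22a8 had 0.73. Of 10 markers of segment S3, 3 were higher and 1 was lower, with a median of 0.48, and Slc7a13 had 2.24. When the kidney libraries were scaled to the summed counts of the S1 and S2 markers, Cyp27b1, Cyp24a1 and Slc34a3 stayed lower past the fold, and Lrp2 and Cubn passed it upward beside Slc34a1.

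Of 10 markers of tubular injury, 7 were lower and 1 was higher in the CLP + MLT kidney, with a median of −1.73 and a summed level of 1225 and 425 normalised CPM. Havcr1, which encodes kidney injury molecule KIM-1, had a log2 ratio of −4.46. Macrophages can also express Cyp27b1, and their part in its value was not tested. Of 10 macrophage and monocyte markers, 7 were higher and 1 was lower in the CLP + MLT kidney, and their summed level was 127 and 226 normalised CPM. Of 6 fat markers, 4 were tested and 3 were lower, and the defining genes Adipoq and Lep had 0 counts in both kidney libraries.

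In the heart, 7 of the 10 genes had a mean of at least 10 counts and were compared. Kl, Slc34a1, Lrp2 and Cubn were higher past the fold in the CLP + MLT library and none was lower, against 10.9% higher and 12.6% lower of the 15871 genes tested in heart. Slc34a1 had 587 counts in the CLP heart and 1454 in the CLP + MLT heart, a log2 ratio of 1.32 (1.18 to 1.46). Lrp2 had 117 and 329 counts and a log2 ratio of 1.50 (1.19 to 1.82). Kl had 52 and 101 counts with 0.96 (0.47 to 1.48), and Cubn had 81 and 162 with 1.01 (0.62 to 1.41).

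The other 3 genes compared, Slc20a2, Fgfr1 and Vdr, lay within 1.5-fold. Slc20a2 had 903 and 1121 counts in the heart libraries and a log2 ratio of 0.32 (0.19 to 0.45). Fgfr1 had 938 and 842 counts, with −0.15 (−0.28 to −0.010). Vdr had 72 and 57 counts, with −0.32 (−0.85 to 0.19), an interval that held 0. The 3 remaining genes were too low to compare: Cyp27b1 had 12 and 7 counts, Cyp24a1 had 0 and 3, and Slc34a3 had 1 and 2.

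Marker lists also moved between the heart libraries. Of 15 S1 and S2 markers, 8 were higher and 2 lower in the CLP + MLT heart, and the list summed to 264.6 and 402.7 normalised CPM. Of 10 S3 markers, 7 were higher and 0 lower, and all 6 tested collecting duct markers were higher, with Aqp2 at 26 and 143 counts. Of 6 thick limb markers, 2 were higher and 0 lower, with a median of 0.18, and Cldn10 had −0.49. Of 6 distal convoluted tubule markers, 2 were higher and 0 lower, with a median of 0.37, among them Pvalb with 0 counts in the CLP heart and 20 in the CLP + MLT heart, while Klhl3 had −0.26. Of 10 cardiomyocyte markers, 0 were higher and 4 lower, with a median of −0.45. Their log2 ratios were above 0 for 3 genes and below 0 for 7. Myl2 and Myl3, which encode myosin light chains, had −1.33 and −1.46, while Actc1 had 0.47 (0.41 to 0.53). The part of these markers in the values of Kl, Slc34a1, Lrp2 and Cubn was not tested.

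Of the other pathway genes, 72 were tested in heart, 7 were higher past the fold and 3 were lower, 13.9% in all, with a median of 0.033. This share lies below that of all heart genes, of which 10.9% were higher and 12.6% lower. The FGF receptor response list had 3 of 11 genes higher and 1 lower, with a median of 0.33. Its inhibitors of growth factor signalling Spry4 and Spred1 had log2 ratios of 1.18 (0.70 to 1.69) and 0.81 (0.57 to 1.06). In the apical endocytosis list Amn, which encodes amnionless, the membrane partner of cubilin, had 23 and 78 counts and a log2 ratio of 1.75 (1.09 to 2.51). Of the klotho and FGF23 list, 3 of 9 genes were higher and 0 lower, all with a mean under 50 counts, among them Fgfr2 with 2 and 22. Spp1 was lower in heart too, from 1531 to 855 counts, with −0.83 (−0.95 to −0.71).

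The level in heart was also set against that in kidney, after scaling of all 4 libraries together. In the CLP libraries, 8 of the 10 genes were higher in kidney, and Slc20a2 and Fgfr1 were higher in heart. The share of all genes higher in kidney was not counted, so whether 8 of 10 is unusual is not known. With no TMM factor, Fgfr1 changed sides, and 9 genes were higher in kidney and 1 in heart. The heart level of Slc34a1 was 3.42% (3.14 to 3.71) of the kidney level in the CLP libraries and 5.68% (5.39 to 5.99) in the CLP + MLT libraries. For Lrp2 it was 1.90% and 4.18%, for Kl 2.11% and 3.31%, for Cubn 4.03% and 5.64%, and for Vdr 3.50% and 3.61%. For 44 tubule markers the median was 2.14% (range 0 to 90.6) in the CLP libraries and 3.94% (range 1.13 to 111) in the CLP + MLT libraries. Slc20a2 stood at 259% (234 to 287) and 391% (346 to 442), and Fgfr1 at 123% (114 to 134) and 114% (104 to 125) with TMM scaling.

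**Figure D5:**
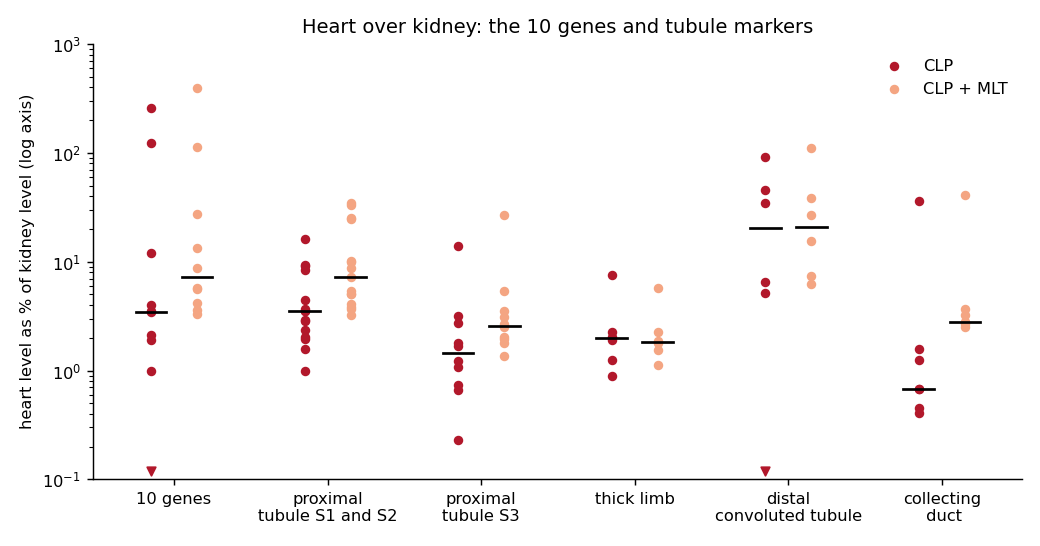
Heart level as a percent of the kidney level (log axis) for the 10 genes and for markers of 5 tubule segments, in the CLP libraries (dark) and the CLP + MLT libraries (light). Each point is a gene, black bars are medians and triangles stand for 0 counts in heart. Vdr, Kl, Slc34a1, Lrp2 and Cubn lie between 1.90% and 5.68%, the tubule markers spread from 0 to 111%, and Slc20a2 (259% and 391%) and Fgfr1 (123% and 114%, below 100% in the CLP libraries by library size only) lie highest.

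The ratios in the 2 tissues differed for several genes by more than counting error, although the spread between mice behind this difference is unknown. Kidney minus heart, the difference of the log2 ratios was −0.68 (−0.83 to −0.54) for Slc34a1, −1.09 (−1.41 to −0.78) for Lrp2, −0.60 (−1.11 to −0.098) for Kl and −0.43 (−0.84 to −0.035) for Cubn. Each of these was higher in both tissues in the CLP + MLT library. For Slc20a2 the difference was −0.54 (−0.78 to −0.31), with the kidney ratio below 0 and the heart ratio above 0. For Vdr it was 0.0052 (−0.52 to 0.54) and for Fgfr1 0.16 (−0.019 to 0.35), both with intervals that held 0. No gene of the 10 lay past the fold in opposite directions in kidney and heart. Of the genes past the fold in kidney, only Slc34a1 was also compared in heart, so this count says little about the tissues. Cyp27b1, Cyp24a1 and Slc34a3 were too low in heart to be compared.

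Relative to Slc20a2, Slc34a1 was higher in the CLP + MLT library of both tissues. The ratio of Slc34a1 to Slc20a2 within a heart library was 0.864 for CLP and 1.72 for CLP + MLT, a log2 change of 1.00 (0.81 to 1.19), beside 0.86 in kidney. The ratio of Kl to Fgfr1 was 0.0587 and 0.127 in the heart libraries, a log2 change of 1.11 (0.60 to 1.64). For Cubn over Lrp2 it was 0.774 and 0.551, with a log2 change of −0.49 (−1.001 to 0.022), an interval that held 0.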

How the data were processed

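RNA of kidney and heart was purified with poly-T beads and sequenced. The authors trimmed reads with trim-galore, aligned them to mm10 with HISAT2 2.1.0 and deposited raw counts per gene. The submitters' processing notes name HTSeq, with its strand setting and annotation not given in the sources used here. The library kit does not mark strand, so counts of overlapping and antisense genes are uncertain. The 5 closing lines of each file, which name no gene, were left out, and reads on no gene made up 52.1% to 52.6% of those placed on a gene or on none.

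Genes were named with GENCODE M21, whose build GRCm38 is mm10, and 55141 of 55401 identifiers were matched, Ank by its synonym Ankh. In R 4.3.3, TMM factors were computed with edgeR 4.0.16 on genes averaging 10 or more counts, within each tissue for ratios and over all 4 libraries for levels, and DESeq2 1.42.0 size factors served as an alternative. In Python 3.11.15 with scipy 1.17.1, log2 ratios used a prior count of 0.5, and 95% intervals were exact Clopper-Pearson intervals, exact conditional odds ratio intervals for differences of ratios, or Poisson intervals for levels. These intervals cover counting error only. PCR copies are not independent molecules, so the intervals may be too narrow even for that error. The study called genes with edgeR at 1.5-fold and a p-value limit. Since dispersion needs replicates, a gene was called here by its fold of 1.5 alone. RPKM used merged exons of all annotated transcripts. The scripts were tested on simulated counts.

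The 10 genes and the lists were chosen with earlier results of these data known. The text names the 10 genes, up to 6 genes per pathway list in kidney and up to 3 in heart past the fold averaging 50 or more counts, and up to the first 4 markers of a list. Other genes named were chosen after their values were seen. Other scalings, filters, prior counts and call rules were tried as alternatives, and the scaling of single genes to proximal tubule markers was added after the data were seen.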

Additional observations from a re-analysis of the deposited data

Results flagged for a closer look

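For 1 of the 10 genes and 13 other pathway genes, the kidney and heart log2 ratios lay on opposite sides of 0 with counting intervals that left out 0. The share of all genes with such opposite signs was not counted, so whether these genes are unusual is not known. The signs can depend on the scaling. Scaled to proximal tubule markers, the kidney log2 ratio of Slc20a2 was −0.0086 (−0.20 to 0.18). With 1 library per group, these differences between tissues were not tested against the spread between mice. Kidney minus heart, the difference was −0.54 for Slc20a2. It was also below 0 for Slc20a1 (−1.01), Dab2 (−1.05), Sgk1 (−0.74), Slc37a4 (−0.64) and Prkaca (−0.38). In the FGF receptor response list it was below 0 for Dusp6 (−0.79), Spry1 (−0.66), Spred1 (−1.02), Spred2 (−0.85) and Fosl1 (−4.59, from 32 and 2 counts in kidney and 18 and 43 in heart). It was above 0 for Fgfr3 (0.75), Gnas (0.60) and Ocrl (0.89).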

How the results depend on the processing

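No paired analysis was possible because each group held 1 library, and for the same reason no library could be left out. Scaled by library size only, the median log2 ratio of all kidney genes was −0.19, 26.6% of the calls past the fold were higher instead of 48.6%, and the median of the 10 genes was −0.30. Scaled to the S1 and S2 markers, it was 0.11, on the other side of 0, and all kidney genes shifted to 0.22. Cyp27b1, Cyp24a1 and Slc34a3 were lower past the fold in kidney under every alternative run, while Slc34a1 was not past it with size-only scaling or a fold of 2. With no filter on low counts, 7 of the 10 genes passed in heart instead of 4, 16 pathway genes instead of 10, and 2 of the 10 genes lay past the fold in opposite directions instead of 0, from Cyp24a1 and Slc34a3 at 3 counts or fewer in heart. Of the pathway genes in kidney, 4 passed a fold of 2 and 8 had intervals wholly beyond 1.5-fold, instead of 14. In heart, 6 passed a fold of 2, 4 had such intervals and 4 passed with a mean of at least 50 counts, instead of 10. For these counts the cause is fewer or more genes admitted by the rule. The remaining 62 values moved by at most 1.5 times (counts) or stayed within set bounds (medians). Those bounds were the median lower and the median upper limit of the single genes' counting intervals. They are not an interval of the median itself. Of the 62 values, 2 hide turned directions. Scaled to the S1 and S2 markers, the kidney pathway genes split into 11 higher and 6 lower instead of 2 and 12, and by library size only, Fgfr1 was higher in the CLP kidney than in the CLP heart, so that 9 genes instead of 8 were higher in kidney. Cyp24a1, Cyp27b1 and Slc34a3 had too few counts in heart to be compared at this depth.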
